A study of Homo sapiens with 8 samples.

Results

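The stretch of chromosome 8 between 126.5 and 129.5 Mb (GRCh38) holds MYC, PVT1 and the gene-poor land on both sides of them. All open regions of the deposited peak table in this stretch were taken, by position alone, which gave 60 of 129536 peaks. All 60 passed the filter on low counts. No peak crossed an edge of the window. The assay was Omni-ATAC-seq: a transposase given to isolated nuclei cuts and tags DNA where chromatin is open. The cells were HEK293, a human embryonic kidney line, carrying eGFP-YAP (a fluorescent fusion of the co-activator YAP). The titles name only HEK293, and the library names carry "wt". One group of 4 libraries came from cells given vehicle, and a group of 4 came from cells kept in 200 mM sorbitol for 1 h, which raises the osmolarity outside the cell and shrinks it. Library names put the vehicle samples at 0 h and the sorbitol samples at 1 h, and the protocol says that controls were harvested in parallel. The series text states 1 h of serum starvation before sorbitol, and the labels do not say whether the vehicle cells were starved too or whether the line is a single clone. They also do not say that replicates were separate cultures, so p-values measure the spread between these libraries, which may be technical.

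MYC encodes a transcription factor that pairs with MAX to drive growth and ribosome production. Its RNA and protein turn over within minutes, so its output can change quickly, and that output was not measured here. Many of its enhancers lie far away in the gene desert around it and differ between cell types. PVT1, the neighbouring long noncoding RNA gene, carries enhancers inside its body, and its promoter is known to compete with the MYC promoter for them. Both genes are read towards higher coordinates, so positions below MYC are called upstream here.

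Libraries held 11522266 to 19831471 counts in peaks, of which 3834 to 7154 fell in the window. Over all peaks, Pearson correlations of log2 CPM were 0.946 to 0.967 within groups and 0.908 to 0.925 between groups. Vehicle 4 and sorbitol 4 stood apart from their groups. The median log2 deviation of 477 peaks on unplaced contigs was 0.35 in vehicle 4 against -0.30 to -0.07 in the other vehicle libraries. In sorbitol 4 it was -0.32 against 0.08 to 0.29. Lineage markers did not set HEK293 apart: 3 of 5 kidney or neural genes (LHX1, NEFL and NEFM) had a peak within 1 kb of a gene end and PAX2 and PAX8 had none, whereas 3 of 6 genes of other cell types (PTPRC, SPI1 and CDX2) had such a peak and CD3E, ALB and KRT5 had none. The summed level of the first list was 56.2 to 63.2 CPM in vehicle and 46.5 to 55.3 in sorbitol libraries, and of the second 61.4 to 68.7 and 54.0 to 55.4. CPM is the count scaled by library total and by edgeR's TMM factor for composition.

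Open chromatin in the window was concentrated at MYC and along PVT1. MYC lies at 127735434 to 127742951, and PVT1 starts 51.6 kb after its end and runs from 127794524 to 128101256. PVT1 with 1 kb on each side held 27 peaks, or 87.5 per Mb. Upstream of MYC there were 19 peaks (15.4 per Mb), and beyond PVT1 there were 8 (5.72 per Mb). At MYC, meaning overlapping it or within 1 kb, there were 4, and 2 lay between both genes. The window as a whole had 20 peaks per Mb, against 30.5 on chromosome 8 and 44.4 over the 22 autosomes, each counted from its first to its last peak. The longest stretch of the window with no peak in the table was 413 kb, between peaks 423 kb and 9.51 kb upstream of the MYC start. It covers the whole of CCAT2 and POU5F1B, a retrogene related to the pluripotency factor POU5F1, and parts of the noncoding genes CASC8, CASC21 and CASC11. The next longest was 279 kb, in the desert beyond PVT1.

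RefSeq lists 41 genes in the window, of which 3 encode proteins (LRATD2, POU5F1B and MYC), 24 are long noncoding RNA genes, 8 are pseudogenes and 6 are microRNA genes. Within 1 kb of a gene end, 8 of these genes had a peak: MYC, PVT1, LRATD2, CASC11, CCAT1, LINC02912, MIR1204 and LOC105375751. Gene-end peaks numbered 8 in all, and the other 52 peaks are called distant. The gene list used gives no strand, so a gene end can be the place where transcription starts or where it stops. Vehicle levels ranged from 0.901 to 54.2 CPM, with a median of 2.88. Peak widths ranged from 200 to 2134 bp, with a median of 353.5 bp.

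**Figure D1:**
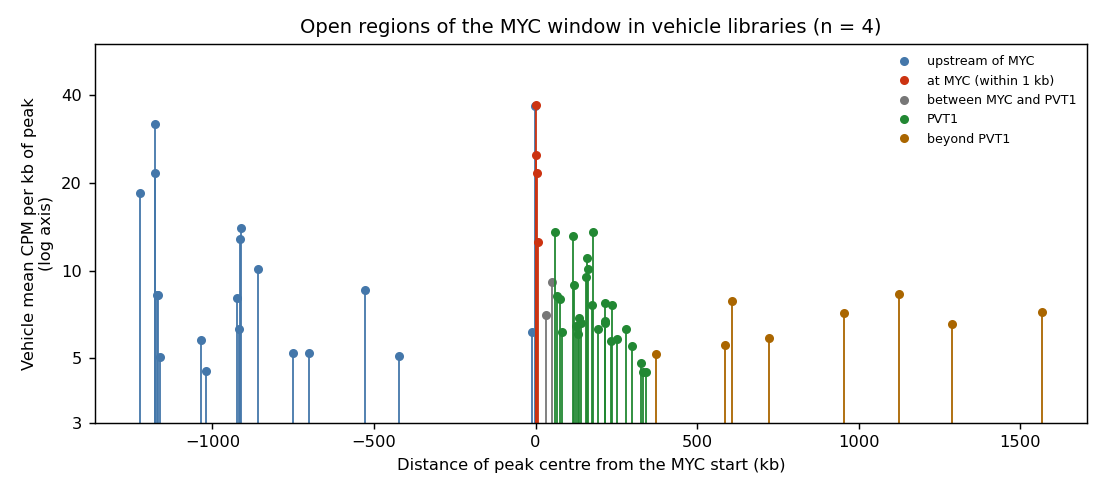
Vehicle accessibility of the 60 peaks (mean CPM per kb of peak width, n = 4, log axis) against the distance of the peak centre from the MYC start in kb, coloured by stretch. The highest values, 37.1 and 36.7, are at the MYC start and the CASC11 end. PVT1 peaks form a dense group reaching up to 13.6, and all 8 peaks beyond PVT1 are at most 8.32.

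Per kb of width, the MYC start peak was the highest of the window in vehicle cells, at 37.1 ± 0.677 CPM per kb (SD, n = 4). The peak at the CASC11 end, 1.25 kb upstream of the MYC start, had 36.7 ± 2.86, so this pair did not differ beyond its spread. The peak at the LRATD2 end came next with 31.9 ± 3.23 CPM per kb, and the PVT1 start peak had 13.6 ± 0.809. By CPM, the MYC start peak exceeded 98.0% of all peaks and 91.4% of all gene-end peaks in vehicle cells. PVT1 peaks had a median of 6.73 CPM per kb, upstream peaks 8.23 and peaks beyond PVT1 6.85. The upstream peaks include 4 gene-end peaks. For distant peaks alone the median was 6.32 upstream and 6.73 in PVT1. Over the window it was 17.6 for gene-end peaks and 6.94 for distant peaks.

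After sorbitol, 7 of the 60 peaks were lower and none was higher by edgeR's quasi-likelihood test with Benjamini-Hochberg adjustment over all 129487 tested peaks. That is 11.7% called in the window, where 29.1% of all tested peaks were called, 13.1% lower and 16.0% higher. At an unadjusted p under 0.05, 12 window peaks had negative and 1 had positive changes. DESeq2 called 6 lower and none higher, against 11.8% lower and 12.5% higher over all peaks. In 9 of 60 peaks all sorbitol libraries lay below all vehicle libraries (12.6% of all tested peaks), and in none did all lie above (13.7%). The median log2 fold change, sorbitol minus vehicle, was -0.15 in the window and 0.01 over all tested peaks. The direction of the calls depends on the scaling. With TMM factors from gene-end peaks, 7 window peaks were higher and 1 lower (over all peaks, 26.3% higher and 6.7% lower), of which 6 higher ones lay in PVT1. The median of all tested peaks was then 0.19.

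The 7 peaks called lower lay upstream and at MYC. Upstream, 6 of 19 peaks were lower, 15 of 19 were below 0 (48.9% of all tested peaks), and the median log2 fold change was -0.32. At MYC, 1 of 4 was lower, with a median of -0.29. In PVT1 none of 27 passed the test, 20 were above 0, and the median was 0.11. Beyond PVT1 none of 8 passed, 7 were below 0, and the median was -0.38. Both peaks between the genes were below 0, at -0.31 and -0.07. The 8 gene-end peaks gave 4 lower and none higher with a median of -0.24, where 41.6% of all gene-end peaks were called, 32.8% lower and 8.74% higher. The 52 distant peaks gave 3 lower, all upstream, and none higher with a median of -0.12, where 26.2% of all distant peaks were called, 8.38% lower and 17.8% higher, and their median was 0.06. Peaks of chromosome 8 outside the window had a median of 0.00. The distance between the PVT1 and upstream medians was 0.43, and it ranged from 0.33 to 0.55 over the alternative fits. A change of library factors alone can hardly move it.

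**Figure D2:**
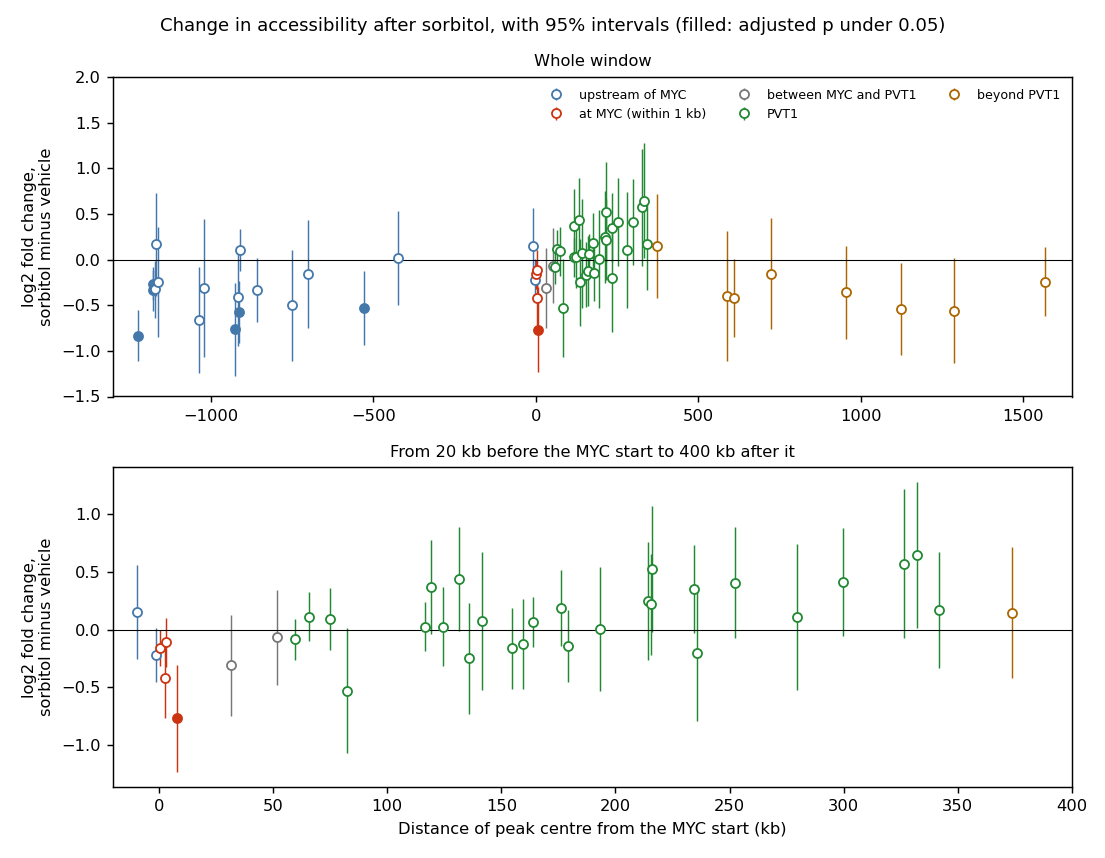
Log2 fold change of accessibility (sorbitol minus vehicle) with 95% intervals for each of the 60 peaks against distance from the MYC start in kb; the lower panel enlarges MYC and PVT1. Filled points passed an adjusted p of 0.05 in edgeR: 6 upstream peaks and 1 at MYC, all below 0, while PVT1 peaks scatter around a median of 0.11.

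At MYC itself the strongest peak, over the gene start (chromosome 8, 127735057 to 127736517, covering the promoter and the first part of the gene), had 54.4, 54.9, 54.7 and 52.7 CPM in vehicle replicates 1 to 4. In the sorbitol libraries it had 51.0, 46.6, 45.8 and 50.7 CPM. All sorbitol values were below all vehicle values, with means of 54.2 ± 0.990 and 48.5 ± 2.72 (SD, n = 4). The log2 fold change was -0.16 with standard error 0.08, and it did not pass the test (edgeR adjusted p = 0.123). Its sign depends on the scaling: it was 0.02 with gene-end factors and 0.04 with a loess offset that depends on peak strength. Without vehicle 4 and sorbitol 4, the libraries that stood apart, it was -0.21 with an edgeR adjusted p of 0.0424.

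The only called peak at MYC was the weakest one, 0.173 kb past the end of the gene (127743124 to 127743386). Vehicle libraries had 3.61, 3.37, 3.92 and 2.26 CPM there, and sorbitol libraries had 2.08, 2.33, 2.09 and 1.31. Vehicle 4 was the low library of its group and fell inside the sorbitol range, so the groups overlapped. The log2 fold change was -0.77 with standard error 0.23 (edgeR adjusted p = 0.00945), a fall from 3.29 ± 0.723 to 1.95 ± 0.447 CPM (SD, n = 4). Without sorbitol 4 the edgeR adjusted p was 0.0517, with a log2 fold change of -0.62, and with gene-end factors it was 0.0506. This peak rests on a mean of 39.6 counts per library.

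Inside the MYC gene lay 2 more peaks. The one 2.44 kb after the start (127737770 to 127737976) had 4.17 to 5.78 CPM in vehicle and 3.50 to 4.05 in sorbitol libraries, with no overlap, and its log2 fold change of -0.42 missed the threshold (edgeR adjusted p = 0.0567). It passed with DESeq2 size factors (edgeR adjusted p = 0.0479), without vehicle 4 (0.0248) and without both libraries numbered 4 (0.0270). The one at 3.21 kb (127738302 to 127738982) had 14.3 to 15.3 CPM in vehicle and 12.7 to 14.8 in sorbitol libraries, which overlapped (log2 fold change -0.11, edgeR adjusted p = 0.481).

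Next to MYC, the peak at the end of CASC11, a noncoding gene beside the MYC promoter (127734006 to 127734358), had 12.4, 14.5, 12.5 and 12.4 CPM in vehicle libraries. Sorbitol libraries had 9.66, 12.2, 11.6 and 11 CPM, all below the lowest vehicle value. The log2 fold change was -0.22 (edgeR adjusted p = 0.147), so the difference did not pass the test over all peaks.

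**Figure D3:**
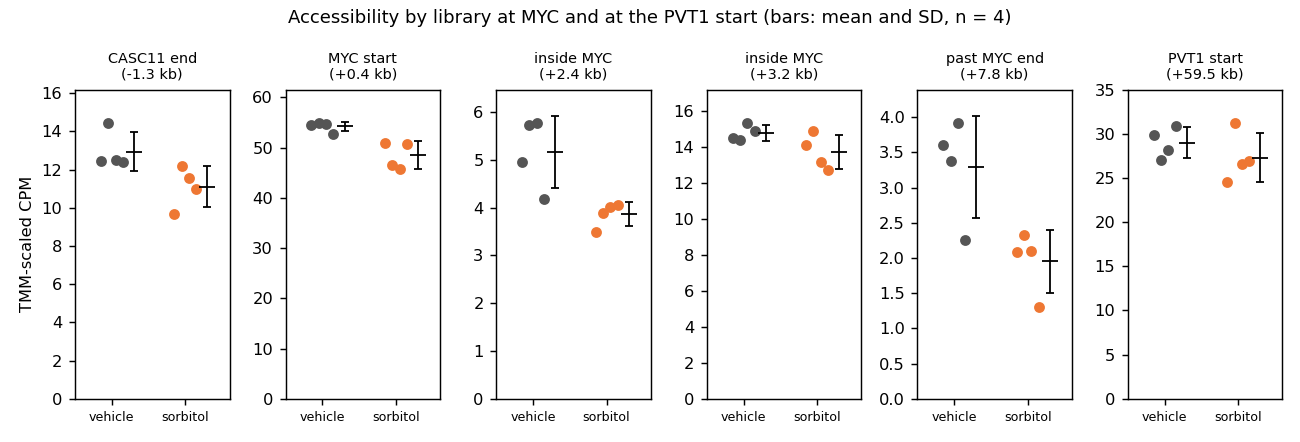
TMM-scaled CPM of each library (points) with mean and SD (bars, n = 4 per group) for the CASC11 end peak, the 4 peaks at MYC and the PVT1 start peak, each on its own axis from 0. The sorbitol points are all below the vehicle points at the CASC11 end, the MYC start and the 2.44 kb peak, and they overlap in the other 3 panels; only the peak past the MYC end passed the test.

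Upstream, the peak with the smallest p lay 1225 kb before MYC, inside the noncoding gene LOC105375750 (126510234 to 126510811). It had 11.4, 11.9, 9.85 and 9.65 CPM in vehicle libraries and 7.50, 4.51, 6.28 and 5.77 in sorbitol libraries, so the groups were well apart. Its log2 fold change was -0.83 with standard error 0.14 (edgeR adjusted p = 8.68e-06), and it kept its sign and its call under all 19 alternative fits.

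Near it, both peaks at LRATD2, the only protein-coding gene of the window other than MYC with a peak at its end, were lower. The peak at the gene end shared with LOC105375751 (126557867 to 126558851) had 35.9, 30.9, 28.5 and 30.2 CPM in vehicle libraries and 25.2 to 26.5 in sorbitol libraries. The groups did not overlap, and the log2 fold change was -0.26 with standard error 0.09 (edgeR adjusted p = 0.0210). The neighbouring peak inside the gene (126556289 to 126557022) had 14.4 to 17.6 CPM against 10.5 to 14.6, a log2 fold change of -0.34 (edgeR adjusted p = 0.0188). These calls were lost with other scalings, among them library totals alone (edgeR adjusted p = 0.0982 and 0.0697) and gene-end factors (0.445 and 0.248). They were also lost without vehicle 1 at the first (0.142), and without vehicle 3 (0.0868), sorbitol 1 (0.0540) or sorbitol 3 (0.0904) at the second.

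Within the long noncoding genes LOC105375751 and LOC105375753, 4 neighbouring peaks gave different values. The peak 914 kb upstream (126820725 to 126821153) had 5.99, 4.88, 5.67 and 5.54 CPM in vehicle and 3.08, 4.35, 3.60 and 3.78 in sorbitol libraries, with no overlap and a log2 fold change of -0.57 (standard error 0.17, edgeR adjusted p = 0.00857). The peak 925 kb upstream (126809913 to 126810239) had 1.92 to 3.25 against 1.37 to 2.00 CPM and a log2 fold change of -0.77 (edgeR adjusted p = 0.0184), on a mean of only 32.0 counts. Its call was lost without vehicle 2 (0.0812) or vehicle 3 (0.0897), and with gene-end factors (0.0756). The 914 kb call was lost with gene-end factors (0.0664) and contig factors (0.101). The peak between them, 918 kb upstream, had 1.71 to 2.65 against 1.00 to 2.10 CPM and did not pass (edgeR adjusted p = 0.258). The strongest of the 4, 911 kb upstream (126824356 to 126825224), did not pass: it had 10.4 to 14.2 CPM in vehicle and 12.5 to 13.9 in sorbitol libraries, a log2 fold change of 0.10 (95% interval -0.12 to 0.33). With gene-end factors it was 0.28 and passed as higher (edgeR adjusted p = 0.0487).

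At CCAT1, a noncoding gene named for its expression in colon cancer, the peak beside the gene end (127206921 to 127207357) had 3.81, 4.22, 3.77 and 3.22 CPM in vehicle libraries. Sorbitol libraries had 3.08, 2.18, 2.43 and 2.75, all lower. The log2 fold change was -0.53 (standard error 0.20), close to the threshold (edgeR adjusted p = 0.0431). The call was lost in 11 of 18 alternative fits, among them those without vehicle 1, 2 or 3 or sorbitol 2, 3 or 4 (edgeR adjusted p 0.0526 to 0.124) and the DESeq2 test (0.0634). With the replicate number as a block it was also lost (edgeR adjusted p = 0.0599).

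At the start of PVT1 the peak was the widest of the window at 2134 bp (127793868 to 127796001) and also covers MIR1204, a microRNA gene hosted by PVT1. Vehicle libraries had 29.9, 27.0, 28.2 and 30.9 CPM, and sorbitol libraries had 24.6, 31.3, 26.5 and 26.9. The groups overlapped, and the log2 fold change was -0.08 (95% interval -0.26 to 0.10, edgeR adjusted p = 0.523). Gene-end factors and the loess offset turned its sign.

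Deeper in PVT1, the 2 next strongest peaks were nearly level between groups. The peak 116 kb after the MYC start (127851391 to 127852457) had 13.7 to 14.5 CPM in vehicle and 13.4 to 14.8 in sorbitol libraries, with a log2 fold change of 0.03 and an interval from -0.19 to 0.24. The peak at 164 kb (127898403 to 127899786) had 13.6 to 14.6 against 12.1 to 16.2 CPM, with 0.06 and an interval from -0.15 to 0.28. Contig factors turned the sign of both. Near LINC02912, a noncoding gene inside PVT1, the peak at 214 kb (127949713 to 127950006) had 1.44 to 2.24 against 1.32 to 3.10 CPM, with a log2 fold change of 0.25 (edgeR adjusted p = 0.506). Log2 fold changes over the whole of PVT1 ranged from -0.53 to 0.65. Without vehicle 3, 1 PVT1 peak, 119 kb after the MYC start, passed the test as higher (log2 fold change 0.59, edgeR adjusted p = 0.0433). In the other direction, the peak 82.5 kb after the MYC start had 1.69 to 2.18 CPM in vehicle and 1.17 to 1.65 in sorbitol libraries, the only PVT1 peak with all sorbitol libraries below all vehicle libraries (-0.53, edgeR adjusted p = 0.138). It passed as lower with the loess offset (-0.69, edgeR adjusted p = 0.0462). Most PVT1 peaks were weak, with a median of 37.25 counts per library and a median standard error of 0.23, and the largest of these changes, 0.65 at 332 kb, missed the threshold (edgeR adjusted p = 0.119).

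Beyond PVT1 the 8 peaks were weak as well, at 1.25 to 4.16 CPM in vehicle cells. The strongest, 1568 kb after the MYC start (129303392 to 129303969), had 3.08 to 4.70 CPM in vehicle and 2.92 to 4.52 in sorbitol libraries (log2 fold change -0.24, edgeR adjusted p = 0.370). The next, at 609 kb (128343944 to 128344377), had 3.06 to 3.90 against 1.92 to 3.34 CPM (-0.42, edgeR adjusted p = 0.133). The peak at 1124 kb (128859190 to 128859521) had 1.70 to 3.66 against 1.26 to 2.83 CPM, with a log2 fold change of -0.54 (edgeR adjusted p = 0.0977). It passed without vehicle 1 (0.0349), without sorbitol 1 (0.0299) and with the loess offset (0.0492).

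Set out by distance, the same peaks mostly repeat these stretches. Within 50 kb of the MYC start 6 of 7 peaks were below 0 and 1 was called lower. From 50 to 200 kb, where 16 of 17 lie in PVT1, 7 were below and 10 above 0, the median was 0.03 and none was called. From 200 to 500 kb, where 11 of 13 lie in PVT1, 12 were above 0, the median was 0.25 and again none was called. From 500 to 1000 kb 11 of 12 were below 0 with a median of -0.40, and beyond that 10 of 11 with a median of -0.32, and each of these ranges held 3 peaks called lower, all upstream. Over all tested peaks 48.9% were below 0 and 13.1% were called lower. Gene-end peaks numbered 1 from 500 to 1000 kb and 2 beyond that, and all were called lower. Over the genome 32.8% of gene-end and 8.38% of distant peaks were called lower.

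The division of the window's counts between its stretches does not depend on the factor by which a library is scaled, and it was compared directly. Upstream peaks held 34.4%, 34.5%, 33.8% and 33.3% of window counts in vehicle replicates 1 to 4 and 30.3%, 30.0%, 29.9% and 31.3% in sorbitol replicates. The groups did not overlap, and the difference was -3.64 percentage points (exact two-sided permutation p = 0.0286, below which 4 against 4 cannot go, and 0.0381 adjusted over the 4 shares tested). PVT1 peaks held 37.5% ± 0.937 in vehicle and 42.7% ± 1.41 in sorbitol libraries (SD, n = 4), with all sorbitol libraries higher, from 41.3% to 44.3% against 36.5% to 38.8%. This difference was 5.24 points (exact permutation p = 0.0286, adjusted 0.0381). Peaks within 5 kb of MYC held 25.0% ± 0.491 and 23.9% ± 0.305 (SD, n = 4), a difference of -1.11 points (exact permutation p = 0.0286, adjusted 0.0381). The MYC start peak alone, which makes up most of that share, held 14.8% to 15.2% in vehicle and 13.7% to 15.4% in sorbitol libraries, which overlapped, a difference of -0.35 points (exact permutation p = 0.457). The CASC11 end peak is counted both in the upstream share and in the share within 5 kb of MYC. Counted within 1 kb of MYC, which leaves that peak out, the difference was -0.876 points and the groups overlapped (exact permutation p = 0.0571). Shares of 1 whole are tied, so these are not independent results. The stretches also differ in make-up: 4 of 19 upstream peaks, among them the strongest, and 2 of 27 PVT1 peaks are gene-end peaks. Over all tested peaks the median log2 fold change was -0.17 at gene ends and 0.06 at distant peaks. For distant peaks alone it was -0.32 upstream and 0.11 in PVT1, and their shares were not tested.

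Within libraries whose names share the first number, replicates 1 and 2, the PVT1 share differed by 5.51 points and the upstream share by -4.32. For replicates 3 and 4 these were 4.97 and -2.96, and for the share within 5 kb of MYC the values were -1.44 and -0.771. The labels do not say that this number marks a batch. Without vehicle 4 and sorbitol 4 the PVT1 share differed by 5.96 points and the upstream share by -4.19 (exact permutation p = 0.1 for each, the smallest that 3 against 3 allow).

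**Figure D4:**
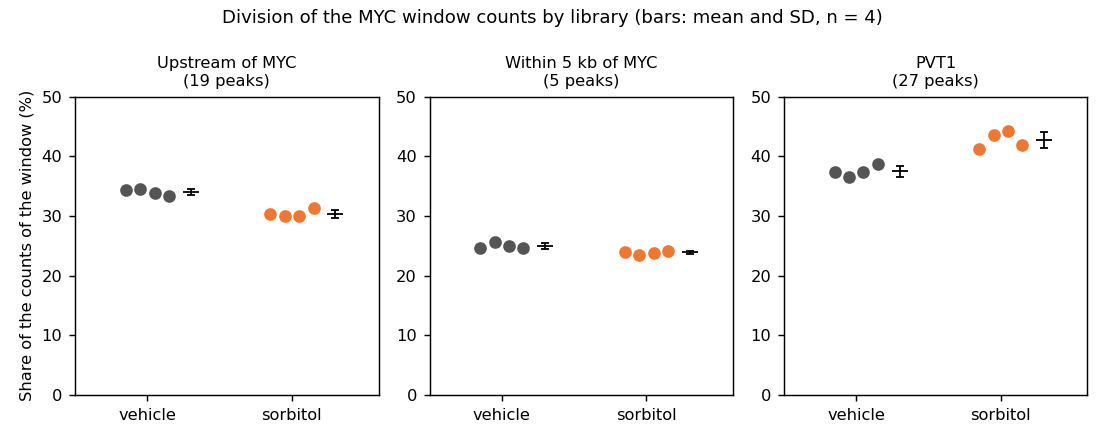
Share of the window's counts in percent by library (points) with mean and SD (bars, n = 4 per group), for upstream peaks (19), peaks within 5 kb of MYC (5) and PVT1 peaks (27). Sorbitol libraries are all lower in the first 2 panels and all higher in the third. The CASC11 end peak is counted in both of the first 2 panels.

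The window as a whole held 0.0351% ± 0.000693 of library counts in vehicle and 0.0341% ± 0.000861 in sorbitol libraries (SD, n = 4), which overlapped (exact two-sided permutation p = 0.2). On the TMM scale it went from 361 ± 7.57 to 331 ± 8.08 CPM, with no overlap (exact permutation p = 0.0286). Whether the window fell as a whole thus depends on the scaling. On the TMM scale, summed upstream peaks went from 123 ± 4.05 to 101 ± 3.17 CPM and peaks at MYC from 77.4 ± 2.43 to 68.0 ± 2.35. Summed PVT1 peaks were at 135 ± 2.59 and 142 ± 4.82 CPM (SD, n = 4).

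**Figure D5:**
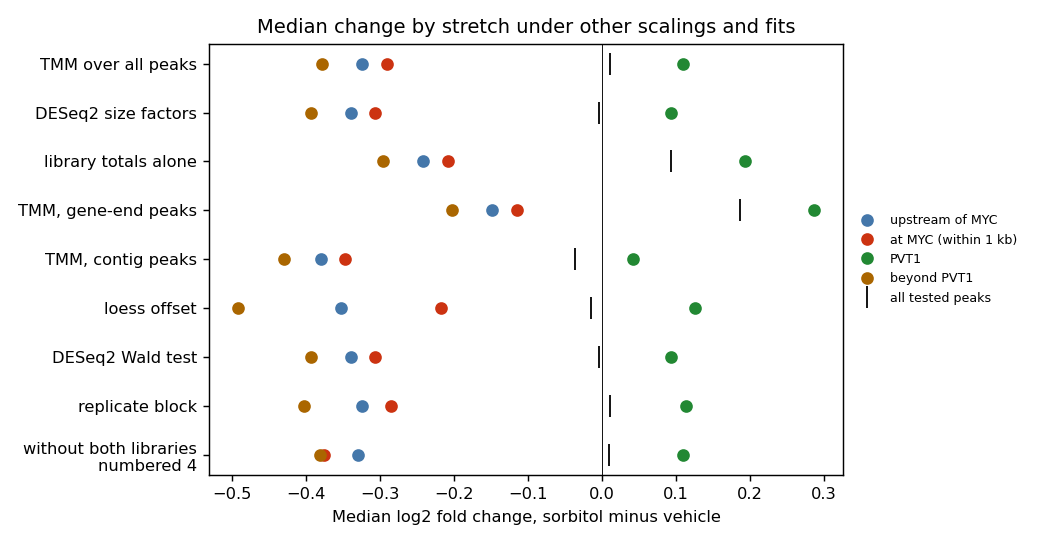
Median log2 fold change (sorbitol minus vehicle) of the upstream, MYC, PVT1 and beyond-PVT1 peaks and of all tested peaks (bars) under 9 scalings or fits. With gene-end factors the median of all tested peaks moves from 0.01 to 0.19. In each of the 9 the PVT1 median stays to the right of the all-peak median and the other 3 to its left. The all-peak median mixes gene-end and distant peaks, whose medians were -0.17 and 0.06 in the TMM fit. Scalings that change only library factors shift all peaks by nearly the same amount, so they leave these positions almost fixed.

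Relative to the median of all tested peaks, the PVT1 median lay 0.10 above it in the TMM fit and 0.05 to 0.20 above it in the alternatives. The upstream median lay below it, by -0.34 in the TMM fit and by -0.36 to -0.25 in the alternatives. The median at MYC lay at -0.30 from it, and at -0.09 where a mean of at least 50 counts was asked for, which keeps 3 of the 4 peaks. Beyond PVT1 the distance was -0.39, and -0.17 under that filter, which keeps 1 of the 8. Alternatives that change only library factors shift all peaks by nearly the same amount, so they cannot test these distances. The reference mixes gene-end and distant peaks, while 25 of the 27 PVT1 peaks are distant. In the TMM fit all tested distant peaks had a median of 0.06. The distant PVT1 peaks had 0.11, close to that, and the distant upstream peaks -0.32.

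MYC works in a network of factors that share MAX or MLX as partners, and the ends of its 13 genes carried 19 peaks. The edgeR test called 9 lower and 1 higher and left 9 uncalled, and their median log2 fold change was -0.24. Gene-end peaks of the genome, as given above, were called lower in 32.8% and higher in 8.74% of cases, and their median was -0.17. The genes were listed from general knowledge of the network.

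Among the lower peaks were some at MNT and the MXD family, which oppose MYC by taking its partner. MNT, a repressor that pairs with MAX, had the largest change among the strongest peaks of the 13 genes, from 53.2 ± 0.785 to 33.0 ± 2.67 CPM (SD, n = 4) at its strongest peak (chromosome 17, 2400576 to 2402196). That is -0.69 on the log2 scale (standard error 0.08, edgeR adjusted p = 4.57e-09), and it kept its call under all 19 alternative fits. The MXD family of repressors had log2 fold changes of -0.41 at MXD1, -0.35 at MXD4 and -0.24 at MXD3, each past the edgeR threshold at the gene's strongest peak. A weaker MXD3 peak had 0.12 and did not pass. MXI1, of the same family, had -0.10 at its strongest peak, which did not pass, and -0.29 at its other, which did.

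The partner genes MAX (-0.39) and MLX (-0.28) were lower too at their strongest peaks, and a weaker MAX peak had 0.17 and did not pass. MLXIPL, which encodes a glucose-sensing partner of MLX, was the only higher one, from 8.24 ± 0.628 to 10.6 ± 1.61 CPM (SD, n = 4), or 0.36 on the log2 scale (edgeR adjusted p = 0.0267). A weaker MLXIPL peak had -0.36 and did not pass. The MLXIPL call was lost in 6 of 19 alternative fits. Among them were DESeq2 (adjusted p = 0.0630) and edgeR without vehicle 1 (0.0808), sorbitol 2 (0.0919) or sorbitol 4 (0.121). The MXD3 call was lost in 7 of 19, among them those without vehicle 2 (edgeR adjusted p = 0.0541) or sorbitol 3 (0.0710). The MLX call was lost in 9 of 19. Among them were those without vehicle 1 (edgeR adjusted p = 0.0730), vehicle 2 (0.111), sorbitol 1 (0.0798) or sorbitol 3 (0.0502). Over the alternatives the log2 fold change ranged from -0.31 to -0.04 at MXD3 and from -0.34 to -0.10 at MLX.

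MYCN (0.06) and MYCL (-0.03), the paralogues of MYC, MGA (0.01), which also binds MAX, and MLXIP (-0.08) did not pass. With gene-end factors MYCN passed as higher (0.23, edgeR adjusted p = 0.0373), and 7 of the 19 peaks were called in either direction. Contig factors left 2 called, and the loess offset 6. Calls over all tested peaks were 37717 in the TMM fit and 42710 with gene-end factors (26.3% higher and 6.7% lower). They were 14352 with contig factors and 35004 with the loess offset.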

How the data were processed

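Reads in peaks were deposited by the authors as 1 table of whole-number counts for 129536 peaks in 8 libraries. The submitters' processing notes name Trim Galore 0.6.10, BWA 0.7.17, SAMtools 1.22 and MACS2 2.2.9.1 and the build GRCh38. Their settings, how the peak sets of libraries were merged and whether reads or fragments were counted are not given in the sources used here. All counts per library ranged from 11522266 to 19831471, and no pair of libraries held identical values. Positions in the table count from 0 and are printed from 1. Genes come from a RefSeq table of GRCh38.p14 without strand, and a gene-end peak lies within 1 kb of either end of a gene.

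Peaks were kept by edgeR's filterByExpr (minimum count 10), which removed 49 and left 129487. Libraries were scaled by TMM, and CPM uses those scaled totals. Differences were tested with edgeR 4.0.16 (R 4.3.3, limma 3.58.1) by the quasi-likelihood F test over both groups without covariates, with Benjamini-Hochberg adjustment over all tested peaks and a threshold of 0.05. The standard error is the absolute log2 fold change divided by the square root of F. Shares of counts were compared by exact two-sided permutation of the 8 libraries (scipy 1.17.1). On simulated counts for 129462 peaks of this comparison, of which 197 changed by 2-fold, edgeR recovered 127 with 8 false calls and DESeq2 1.42.0 recovered 105 with 5. In the data 29.1% of peaks were called, and called window peaks had log2 fold changes of -0.83 to -0.26. These rates therefore do not give the sensitivity for the window.

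Single peaks are named if they lie at MYC or an end of PVT1, are among the 3 with the highest mean CPM upstream, inside or beyond PVT1, are among the 5 with the smallest p past the threshold in a direction, or are the strongest at an end of another gene of the window or of the MYC network. The peaks 918 kb upstream and 82.5, 119 and 332 kb after the MYC start and the weaker peaks of MXI1, MXD3, MAX and MLXIPL were named after their values were seen. The members, the lists and the rule were chosen with earlier results of these data known. Alternatives were DESeq2 and its size factors, library totals alone, TMM factors from gene-end or contig peaks, a loess offset, leaving the filter out or asking for a mean of at least 50, a threshold of 0.01, a block for replicate number or for the number in library names, and each library left out. A fit without both libraries numbered 4 was chosen after seeing the data. No sequence is used here.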

Additional observations from a re-analysis of the deposited data

Results flagged for a closer look

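In 3 of the 70 groups of 4 libraries examined, 1 library lay far from the others, by Dixon's test at the 95% level; chance gives about 1 in 20, or 3.5 of 70. At the peak 925 kb upstream of MYC, which was called lower, sorbitol 1 had 2.00 CPM and the other sorbitol libraries 1.37 to 1.48. At the CASC11 end, vehicle 2 had 14.5 CPM and the other vehicle libraries 12.4 to 12.5. At the MGA gene end, vehicle 2 had 13.7 CPM against 11.3 to 11.5 in the others.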

How the results depend on the processing

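All 7 called peaks stayed below 0 under every alternative in which they were fitted, and the 1225 kb peak kept its call in all 19. Against 7 called and 7 lower, library totals alone gave 4 and 4, contig factors 3 and 3, a mean of at least 50 counts 2 and 2, and a threshold of 0.01 3 and 3. Over all tested peaks, 37717 calls in the TMM fit became 38812 with totals alone, 14352 with contig factors and 35004 with the loess offset. A mean of at least 50 counts left 21406. Gene-end factors gave 7 higher and 1 lower, with 42710 calls over all peaks. Leaving out 1 library gave 5 to 9 called, 4 to 9 lower (4 without vehicle 3) and 0 to 1 higher, and without both libraries numbered 4 there were 10 lower. Over all peaks these fits gave 30555 to 38658 and 37592 calls. Of the named peaks 7 passed, against 4 with totals alone, 2 with gene-end factors, 3 with contig factors, 2 at a mean of at least 50, 3 at a threshold of 0.01 and 4 to 8 with 1 library left out. The network count of 10 became 2 with contig factors and 6 with the loess offset, with a mean of at least 50 and at 0.01. The mean of at least 50 tests fewer peaks; the cause of the other shifts was not tested.

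The window's share of library counts differed by -0.00104 points, by -0.00301 with TMM totals (exact permutation p = 0.0286) and by -0.00129 to -0.000721 with 1 library left out. The share within 5 kb of MYC differed by -0.876 within 1 kb and by -1.23 to -0.873 with 1 library left out (exact permutation p = 0.0571, the smallest for 4 against 3), where the upstream share ranged from -3.94 to -3.48 and the PVT1 share from 4.73 to 5.73. Without both libraries numbered 4 these were -1.33, -4.19 and 5.96 (p = 0.1, exact). With the replicate block, differences were -1.11, -3.64 and 5.24 (p = 0.125 by exact sign flips, which cannot give less). Same-numbered libraries did not deviate together (correlations -0.13 to 0.01), which cannot show whether they were handled together. The block gave 6 lower window peaks, with 34444 calls over all peaks.

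Signs turned only at peaks that did not pass: with gene-end factors at the MYC start (0.0162), 3.21 kb (0.0665), the PVT1 start (0.0894), MYCL (0.15), MXI1 (0.0737) and MLXIP (0.0951), and with the loess offset at the MYC start (0.0352), the PVT1 start (0.0716), MYCL (0.136), MXI1 (0.0711) and MLXIP (0.0686). Contig factors turned 116 kb (-0.0182), 164 kb (-0.000436) and MGA (-0.0387), totals alone MYCL (0.0557) and MLXIP (0.00202), and a mean of at least 50 MYCL (0.0537). MGA also turned with DESeq2 size factors (-0.00261), the DESeq2 test (-0.00265) and without both libraries numbered 4 (-0.0434). With 1 library left out MGA ranged from -0.0292 to 0.0827 and MYCL from -0.0708 to 0.0102.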
